A study of Mus musculus with 4 samples.

Results

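Genes of bone morphogenetic protein (BMP) signalling and its targets were followed in wild-type mouse embryonic stem cells (mESCs) and in mESCs labelled as a *Spen* knockout (KO). The set of 10 genes was chosen by name and covers the ligands *Bmp4* and *Bmp7*, the receptor *Bmpr1a*, the signal transducers *Smad1* and *Smad5*, the inhibitory SMAD gene *Smad6*, and the target genes *Id1*, *Id2*, *Id3* and *Msx2*. All 10 were among the 37310 genes of the count table, and all 10 received an adjusted p. The RNA-seq libraries came from the HATX line, 2 from wild-type (WT) cells and 2 from cells labelled *Spen* KO clone 2. Both groups share a doxycycline-inducible *Xist* transgene, a mixed genomic background, growth in serum and LIF on gelatin, and no treatment given in the labels. The study calls its cells haploid, and no value here bears on their ploidy. The KO is 1 clone and the WT is 1 line, so other differences between the lines cannot be told apart from loss of Spen. The study made 2 libraries per cell line, so each p-value measures the spread between these libraries, which may be technical.

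BMPs are secreted ligands of the TGF-β family that bind pairs of type I and type II receptor kinases at the cell surface. The receptors phosphorylate SMAD1 and SMAD5, which enter the nucleus with SMAD4 and switch on the *Id* genes, whose proteins bind E proteins and block differentiation factors. SMAD6 and SMAD7 are themselves induced by such signalling and feed back on it, and in mESCs grown with LIF, BMP signalling through *Id* genes is known to help hold back neural differentiation. Spen is an RNA-binding repressor that is also known as MINT, for Msx2-interacting nuclear target protein.

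SMAD complexes are known to bind the GC-rich motif GGCGCC together with GTCT in BMP response elements, so the promoters of genes that moved are shown here. The sequences are from RefSeq (build GRCm38.p6), and each is the 250 bases upstream of the annotated start, with 1 exact match in mm9, the build of the count table. Of the 10 genes, 8 had an entry and *Id1* and *Bmp7* did not. *Id2*, *Smad6* and *Bmp4* are printed because their RNA changed at an adjusted p under 0.05 and their windows lie clear of annotated exons. The windows are chr12:25780958-25781207 (minus strand) for *Id2*, chr9:63869867-63870116 (minus strand) for *Smad6* and chr14:47010345-47010594 (minus strand) for *Bmp4*, and GGCGCC is in capitals.
Id2: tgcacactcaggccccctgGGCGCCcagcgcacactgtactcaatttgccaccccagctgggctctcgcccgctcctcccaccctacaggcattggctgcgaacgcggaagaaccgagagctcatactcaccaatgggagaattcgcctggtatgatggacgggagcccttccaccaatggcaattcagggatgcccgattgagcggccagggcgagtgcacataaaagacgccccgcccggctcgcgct
Smad6: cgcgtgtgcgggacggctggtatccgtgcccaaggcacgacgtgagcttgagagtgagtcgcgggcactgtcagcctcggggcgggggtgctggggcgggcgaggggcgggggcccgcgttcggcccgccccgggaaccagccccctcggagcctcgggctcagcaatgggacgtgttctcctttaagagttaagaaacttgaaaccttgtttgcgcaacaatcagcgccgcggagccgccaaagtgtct
Bmp4: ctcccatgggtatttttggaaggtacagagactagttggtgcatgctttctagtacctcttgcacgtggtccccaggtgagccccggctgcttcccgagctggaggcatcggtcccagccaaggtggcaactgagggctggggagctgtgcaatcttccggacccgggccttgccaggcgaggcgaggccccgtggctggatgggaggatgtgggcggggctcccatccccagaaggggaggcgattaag
The *Id2* window held GGCGCC, and the *Smad6* and *Bmp4* windows did not. GGCGCC reads the same on both strands. It was present in 3 of the 10 windows of the 8 genes (*Bmpr1a*, *Id2* and 1 of 3 *Smad5* windows), against 9.59% of 32851 mouse promoter windows of this length. GTCT, or AGAC on the other strand, was in 8 of 10 windows and in 82.9% of all windows. The pair of both motifs in 1 orientation with 5 bases between them was in 0 of 10 and in 0.07% of all windows. The windows of the 8 genes were also richer in G and C, with a median of 63.4% against 52.4% for all windows. These matches describe letters in the windows and are not evidence of binding.

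Total counts per library ranged from 36667685 to 61908422. *Spen* itself had normalized counts (read counts divided by DESeq2 size factors) of 3716 and 3047 in WT and 7797 and 6242 in the KO-labelled libraries, a log2 fold change of 1.05 ± 0.21 (SE, DESeq2 adjusted p = 7.7e-06). The study also describes more *Spen* mRNA when the protein is lost. Gene-level counts therefore do not check the label, and the group is called KO-labelled throughout. Of 8 embryonic stem cell markers, 2 were higher (*Zfp42* and *Dppa5a*) and 0 lower at an adjusted p under 0.05. The summed level of the 8 in CPM (counts scaled to one common library total) was 4650 to 4674 in WT and 4823 to 4974 in the KO-labelled libraries. Of all 17710 genes tested, 16.4% were higher and 15.8% lower at this threshold, which is the background for each marker count here. Markers of other lineages were lower at that threshold in 2 of 7 for primitive endoderm (11.02 to 12.2 CPM in WT, 5.07 to 6.01 CPM in KO-labelled), 4 of 5 for trophoblast (39.3 to 41.4 against 20.6 to 21.7 CPM), 2 of 6 for mesoderm (11.97 to 12.8 against 3.58 to 4.07 CPM) and 2 of 4 for neuroectoderm (192 to 195 against 172 to 177 CPM). Of 7 fibroblast markers 1, *Thy1*, was higher, and the list summed to 3.55 to 4.02 CPM in WT and 8.85 to 10.01 CPM in the KO-labelled libraries. *Thy1*, with 89 and 126 counts in WT and 409 and 529 in the KO-labelled libraries, makes up most of that sum. *Col1a1*, *Col1a2* and *Col3a1* had log2 fold changes of 0.98, -1.20 and -0.25 that did not pass. The remaining fibroblast markers were not given an adjusted p. *Postn*, a fibroblast marker, had 0 counts in 3 of 4 libraries, and the trophoblast marker *Elf5* had 0 in both KO-labelled libraries. In bulk RNA, fewer cells of a type and less RNA per cell cannot be told apart.

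The KO-labelled cells carried less RNA of 3 BMP-induced genes, *Id2*, *Smad6* and *Msx2*, and more of the ligand gene *Bmp4*. *Id2* fell most, by 8.34-fold, with the 2 KO-labelled libraries close together. *Id1* and *Id3*, the close relatives of *Id2*, stood at 0.83 and 1.01 times their WT level, and neither passed the test. The study's thresholds were a 2-fold change with a DESeq2 adjusted p below 0.001, and by them 0 of the 10 genes were called higher and 3 lower, against 1.36% and 3.15% of the 17710 genes tested. edgeR's quasi-likelihood test called the same numbers, 0 and 3 (all genes: 247 and 608 of 17261). At an unadjusted DESeq2 p below 0.05 the numbers were 2 and 5. Over the whole table those numbers were 3586 and 3519 of 37310 genes, of which 17710 received an adjusted p. With the adjusted p alone, below 0.05, 1 of the 10 was higher and 3 were lower, against 16.4% and 15.8% of all genes tested. The groups did not overlap for 9 of the 10 genes (4 higher, 5 lower), and for 70.2% of all genes tested, so a lack of overlap alone was common. The median log2 fold change of the 10 was -0.13, beside 0.00 over all genes tested.

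**Figure D1:**
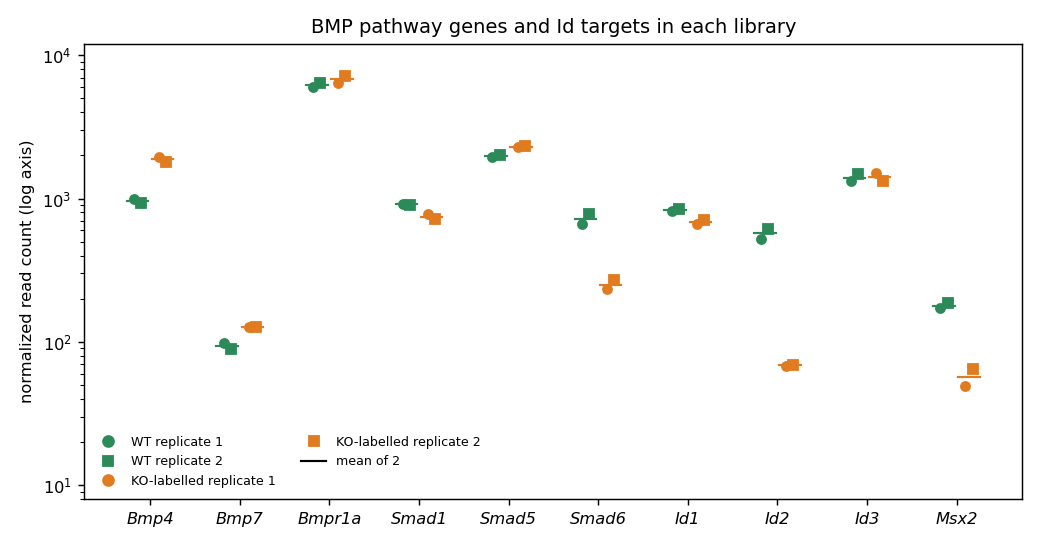
Normalized read count (log axis) of the 10 genes in each of the 4 libraries, with circles for replicate 1, squares for replicate 2, green for WT, orange for KO-labelled, and short lines for the mean of 2. *Id2* falls from 524 and 618 to 67.9 and 68.9, *Smad6* and *Msx2* also separate downwards, *Bmp4* separates upwards, and the points of *Id3* overlap.

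The ligands were examined first. *Bmp4* (ENSMUSG00000021835.8, chr14:47003195-47010344, minus strand, mm9), the BMP ligand best known from early mouse development, had normalized counts of 988 and 927 in WT and 1965 and 1786 in the KO-labelled libraries. Both KO-labelled libraries lay well above both WT libraries. Group means of 957 ± 43.1 and 1875 ± 127 (SD, n = 2) differed 1.96-fold, with a log2 fold change of 0.97 ± 0.11 (SE, DESeq2 adjusted p = 3.47e-16). It rose at an adjusted p under 0.05 but stayed short of the 2-fold threshold, which it passed without WT replicate 1 (1.02) and without KO-labelled replicate 2 (1.04). An annotated gene on the other strand, *Gm15217*, overlaps 4.002% of its exonic bases, and since the strand setting of the counting is not given in the sources used here, reads from that stretch cannot be told apart.

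*Bmp7* (ENSMUSG00000008999.7, chr2:172693513-172765822, minus strand), a ligand that can pair with BMP4, had 98.1 and 89.3 normalized counts in WT and 126.3 and 126.0 in the KO-labelled pair. The KO-labelled values were both above the WT values, on few reads (74 and 82 counts in WT). Its log2 fold change of 0.43 ± 0.32 (SE) did not pass (DESeq2 adjusted p = 0.347), and the 95% interval from -0.20 to 1.07 leaves room for a 2-fold rise or a slight fall.

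*Bmpr1a* (ENSMUSG00000021796.8, chr14:35223920-35316527, minus strand) encodes a type I receptor for BMP4 and was the most abundant of the 10. Its normalized counts were 5993 and 6388 in WT and 6410 and 7186 in the KO-labelled pair. The highest WT value lay just under the lowest KO-labelled one. The log2 fold change was 0.14 ± 0.08 (SE, DESeq2 adjusted p = 0.224), with a 95% interval from -0.03 to 0.30. *Gm17110* on the other strand overlaps 4.57% of its exonic bases.

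Among the SMAD genes, the inhibitory member changed and the transducers shifted little. *Smad6* (ENSMUSG00000036867.5, chr9:63800953-63869866, minus strand), an inhibitor of BMP receptor signalling that is also its target, had 665.6 and 775.4 normalized counts in WT and 232.5 and 269.2 in the KO-labelled pair. The highest KO-labelled value was far below the lowest WT value. Mean counts were 721 ± 77.6 and 251 ± 26.0 (SD, n = 2), 2.87-fold lower in the KO-labelled libraries, and the log2 fold change was -1.52 ± 0.18 (SE, DESeq2 adjusted p = 1.48e-16).

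*Smad1* (ENSMUSG00000031681.8, chr8:81862294-81923417, minus strand), a transducer phosphorylated by the receptors, had 922.8 and 899.5 normalized counts in WT and 774.9 and 722.3 in the KO-labelled libraries. *Smad5* (ENSMUSG00000021540.9, chr13:56804371-56843738, plus strand), the other main transducer in these cells, had 1954 and 2000 in WT and 2273 and 2329 in the KO-labelled pair. The groups did not overlap for either gene, with *Smad1* the lower and *Smad5* the higher in the KO-labelled libraries. The log2 fold changes were -0.28 ± 0.13 for *Smad1* and 0.22 ± 0.09 for *Smad5* (SE), and neither passed (DESeq2 adjusted p = 0.0842 and 0.0575). Both passed an adjusted p of 0.05 with edgeR's quasi-likelihood test (0.0227 and 0.0363) and after the median log2 fold change of each chromosome was removed (0.0145 and 0.0444).

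*Id2* (ENSMUSG00000020644.8, chr12:25778666-25780957, minus strand), an inhibitor of helix-loop-helix transcription factors, had 524 and 618 normalized counts in WT and 67.9 and 68.9 in the KO-labelled libraries. Every KO-labelled value was far below every WT value. Mean counts were 571 ± 66.3 and 68.4 ± 0.67 (SD, n = 2), which is 8.34-fold lower, with a log2 fold change of -3.06 ± 0.22 (SE, DESeq2 adjusted p = 5.41e-41). Of the 17710 genes tested, 100 had a lower log2 fold change. Genes of chromosome 12 were lower as a whole, with a median log2 fold change of -0.32, and with that median removed the value for *Id2* was -2.74 (adjusted p = 1.66e-31). In all, 16.5% of its exonic bases lie in 50-base stretches that occur elsewhere in the genome, and the handling of such reads is not given in the sources used here.

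*Msx2* (ENSMUSG00000021469.7, chr13:53562250-53568443, minus strand), a homeobox gene induced by BMP in many tissues, had 171.0 and 187.3 normalized counts in WT and 48.8 and 65.0 in the KO-labelled pair. The groups were well apart, on 56 and 83 counts in the KO-labelled libraries. Mean counts were 179 ± 11.5 and 56.9 ± 11.5 (SD, n = 2), 3.15-fold lower, with a log2 fold change of -1.65 ± 0.33 (SE, DESeq2 adjusted p = 4.57e-06). The adjusted p rose above 0.001 without WT replicate 1 (0.00523), without WT replicate 2 (0.0169) and without KO-labelled replicate 1 (0.00932), while the log2 fold change ran from -1.88 to -1.46 over the 4 removals. *Msx2* was among the genes that the study displayed for these libraries, as was *Bmp4*.

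*Id1* (ENSMUSG00000042745.9, chr2:152561987-152563146, plus strand), often used as a readout of BMP signalling, had 814 and 848 normalized counts in WT and 669 and 711 in the KO-labelled pair. The KO-labelled values were lower by a small step, without overlap. The log2 fold change of -0.27 ± 0.14 (SE) did not pass (DESeq2 adjusted p = 0.119), with a 95% interval from -0.53 to -0.00405, but it passed 0.05 with edgeR's quasi-likelihood test (0.0326) and with chromosome medians removed (-0.38, adjusted p = 0.0227).

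*Id3* (ENSMUSG00000007872.3, chr4:135699412-135701670, plus strand), the third *Id* gene of the set and likewise BMP-induced, had 1320 and 1478 normalized counts in WT and 1517 and 1316 in the KO-labelled pair. The groups overlapped fully. The log2 fold change was 0.02 ± 0.12 (SE, DESeq2 adjusted p = 0.943), and its 95% interval from -0.22 to 0.25 holds no change of 2-fold in either direction. Genes of chromosome 4 had a median log2 fold change of -0.21, and with that median removed the value for *Id3* was 0.22 (adjusted p = 0.163).

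**Figure D2:**
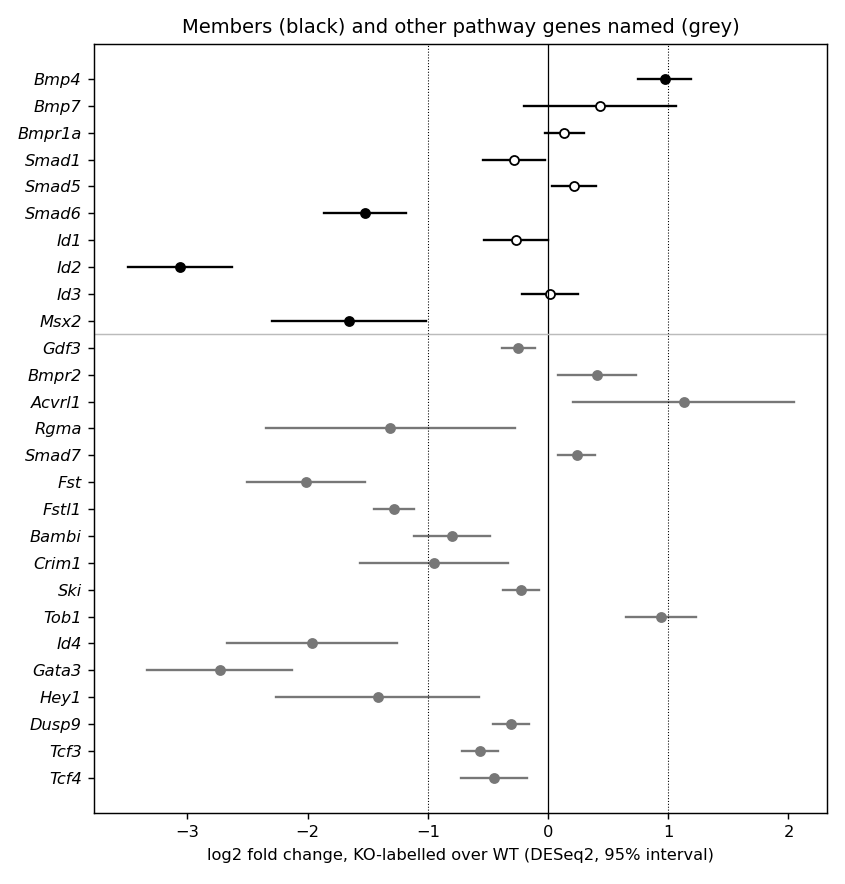
Log2 fold change (KO-labelled over WT, x axis) with its 95% interval for the 10 genes (black) and 17 further genes of the pathway (grey), where filled points passed a DESeq2 adjusted p of 0.05 and dotted lines mark a 2-fold change. *Id2* lies farthest left at -3.06, *Smad6* and *Msx2* lie beyond the 2-fold line at -1.52 and -1.65, and *Bmp4* at 0.97 is the filled black point on the right.

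Levels per exon length, in RPKM (counts divided by exon length and by the library total), set the genes in order within each group. In WT, *Bmpr1a* came first with a mean level of 20.2 RPKM. It was followed by *Id3* at 16.2 and *Id1* at 14.9 RPKM, whose ranges overlapped, and by *Id2* at 9.33 and *Bmp4* at 8.93 RPKM, whose ranges also overlapped. *Smad5* (5.53 RPKM), *Smad6* (4.77), *Smad1* (3.25), *Msx2* (1.52) and *Bmp7* (0.484) came after, each with a range clear of the next. In the KO-labelled libraries *Bmpr1a* still led with 22.3 RPKM, and *Bmp4* stood second with 17.6 RPKM, overlapping *Id3* at 16.5. *Id1* at 12.4, *Smad5* at 6.46 and *Smad1* at 2.68 RPKM were followed by *Smad6* at 1.66, *Id2* at 1.12, *Bmp7* at 0.653 and *Msx2* at 0.481 RPKM. *Id2* thus went from the fourth place to the eighth, below both transducer genes.

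Ratios within a library do not depend on its size factor. *Id2* made up 21.1% and 22.8% of the summed level of *Id1* to *Id4* in WT, against 3.57% and 3.796% among KO-labelled libraries. *Id3* took 37.7% and 38.8% in WT and 56.5% and 51.4% in the KO-labelled pair. The sum itself was 40.2 and 44.6 RPKM in WT and 31.5 and 29.5 RPKM in the KO-labelled libraries. The levels of *Id1* and *Id3*, which make up most of that sum, did not pass in the DESeq2 fit. The ratio of *Id2* to *Id1* levels went from 0.588 and 0.665 to 0.0928 and 0.0885.

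For the transducers, the ratio of *Smad5* to *Smad1* levels was 1.66 and 1.74 in WT and 2.30 and 2.53 in the KO-labelled libraries, while their summed level was 8.68 and 8.89 RPKM in WT and 9.23 and 9.04 RPKM in the KO-labelled libraries. *Smad7*, the other inhibitory SMAD gene, stood 6.20 and 5.93 times above *Smad6* in WT and 22.5 and 18.8 times above it in the KO-labelled libraries. The summed level of both inhibitory genes overlapped between groups. The ratio of *Bmp4* to *Bmp7* was 18.2 and 18.8 in WT and 28.1 and 25.6 in the KO-labelled libraries. With 2 libraries against 2, an exact two-sided permutation test of any such ratio cannot give a p below 0.333, and these ratios are given as descriptions.

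**Figure D3:**
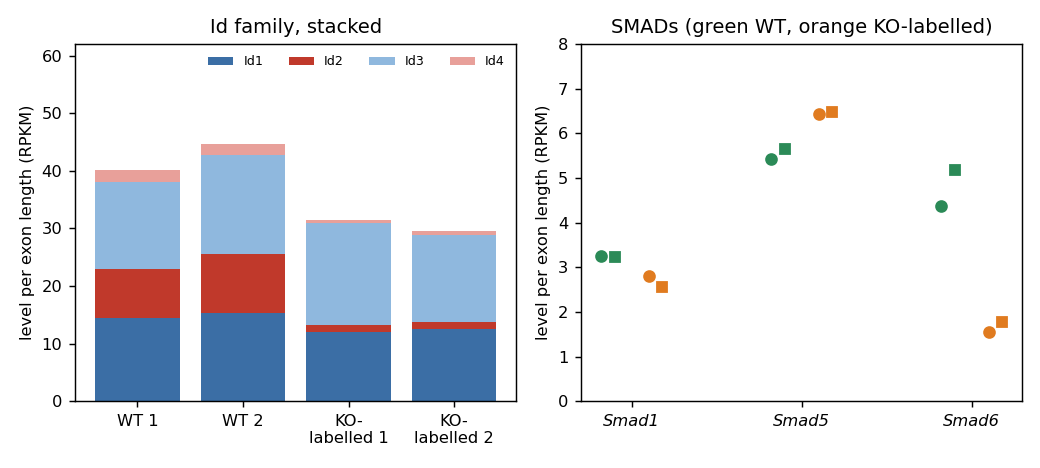
Level per exon length (RPKM) in each library, with the *Id* family stacked on the left and *Smad1*, *Smad5* and *Smad6* as points on the right (circles replicate 1, squares replicate 2). The *Id2* band shrinks from 8.48 and 10.2 RPKM in WT to 1.12 RPKM in both KO-labelled libraries while the *Id1* and *Id3* bands stay broad, and the *Smad6* points move from above *Smad1* to below it.

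The rest of the pathway was followed with a list of 70 further genes, all of them in the table, of which 50 received an adjusted p. At the study's thresholds 0 were called higher and 4 lower (all genes tested: 1.36% and 3.15%), with edgeR giving 0 and 4 as well. At an unadjusted DESeq2 p below 0.05 there were 6 and 18 of the 70, beside 3586 and 3519 of the 37310 genes of the table. At an adjusted p under 0.05, 4 of the 50 were higher and 13 lower, against 16.4% and 15.8% of all genes tested, and the median log2 fold change was -0.23, beside 0.00 over all genes. These shares are also the background for the DESeq2 adjusted counts by role that follow, while edgeR passed 3346 higher and 3721 lower of the 17261 genes it tested. The whole-table counts at an unadjusted p are the background for the unadjusted counts by role. The 20 genes without an adjusted p had low counts and included the ligand genes *Bmp2* and *Bmp5*, with 2 to 6 counts and 0 counts per library.

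Among 14 other ligand genes, 6 were tested and 1 changed, lower, whereas edgeR gave 1 higher and 4 lower at an adjusted p under 0.05. *Gdf3*, a relative of BMPs expressed in pluripotent cells, was slightly lower (log2 fold change -0.25, DESeq2 adjusted p = 0.00206). Of 9 other receptor and co-receptor genes 2 were higher and 1 lower. *Bmpr2*, the type II partner of BMPR1A, had a log2 fold change of 0.40 (adjusted p = 0.0460), the type I receptor gene *Acvrl1* 1.13 (0.0497) and the co-receptor gene *Rgma* -1.31 (0.0417). Each of these 3 receptor calls lay close to the threshold. Without single libraries their log2 fold changes ran from 0.26 to 0.58, from 0.61 to 1.90 and from -2.29 to -0.72, and the calls were lost (adjusted p above 0.05) without any 1 of the 4 libraries for *Bmpr2*, without any but WT replicate 1 for *Acvrl1*, and without any but KO-labelled replicate 1 for *Rgma*.

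Of 3 other SMAD genes, *Smad7* was higher by a small step, with normalized counts of 5949 and 6624 in WT and 7537 and 7296 in the KO-labelled libraries (log2 fold change 0.24, DESeq2 adjusted p = 0.0111). Both KO-labelled libraries exceeded both WT libraries, in the direction opposite to *Smad6*. With chromosome medians removed the value was 0.11 and no longer passed (adjusted p = 0.348).

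Extracellular inhibitors, which bind ligands or compete with receptors, were the largest further group with 19 genes, 11 of them tested. By the adjusted p of 0.05 (all genes: 16.4% higher, 15.8% lower), 0 rose and 4 fell, against 0 and 6 with edgeR and 0 and 6 at an unadjusted DESeq2 p. *Fst*, which encodes follistatin, a binder of activins and some BMPs, had 328.8 and 323.4 normalized counts in WT and 78.4 and 83.0 in the KO-labelled pair. The groups were far apart, with a log2 fold change of -2.02 ± 0.25 (SE, DESeq2 adjusted p = 2.35e-14). *Fstl1*, a secreted glycoprotein gene of the follistatin group, had 4231 and 4243 in WT and 1707 and 1779 in the KO-labelled libraries (log2 fold change -1.28 ± 0.09, SE, adjusted p = 5.05e-48). With chromosome medians removed, *Fstl1* stood at -1.05, close to the 2-fold threshold. For this gene, 12.7% of exonic bases lie in 50-base stretches that occur elsewhere in the genome. *Bambi*, a decoy receptor gene and known BMP target, had a log2 fold change of -0.80 (adjusted p = 6.29e-06), and *Crim1*, a membrane protein gene that tethers BMPs, of -0.95 (adjusted p = 0.0107).

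Among 10 intracellular regulators 1 was higher and 1 lower. *Tob1*, whose protein restrains SMAD activity, had 522.4 and 681.7 normalized counts in WT and 1184 and 1130 in the KO-labelled libraries. Its KO-labelled values were well above WT (log2 fold change 0.94 ± 0.15, SE, DESeq2 adjusted p = 3.25e-09). *Ski*, a corepressor of SMADs, was slightly lower (-0.23, adjusted p = 0.0146), and with chromosome medians removed it stood at -0.02.

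Of 12 other genes known as BMP targets 8 were tested, 0 were higher and 4 were lower (all genes: 16.4% and 15.8%), against 0 and 5 with edgeR and 0 and 4 at an unadjusted DESeq2 p below 0.05. *Gata3*, a transcription factor gene, had 259.9 and 258.1 normalized counts in WT and 45.3 and 32.9 in the KO-labelled libraries. *Id4*, the remaining *Id* gene, had 171.0 and 142.7 in WT and 35.7 and 44.6 in the KO-labelled libraries. Both were far lower in the KO-labelled libraries, with log2 fold changes of -2.73 ± 0.31 and -1.96 ± 0.36 (SE, DESeq2 adjusted p = 4.59e-17 and 6.26e-07). *Id4* had an adjusted p above 0.001 without WT replicate 1 (0.0104), WT replicate 2 (0.00189) or KO-labelled replicate 1 (0.00286), and *A330033J07Rik* on the other strand overlaps 10.3% of its exonic bases. *Hey1*, a helix-loop-helix repressor gene, had a log2 fold change of -1.42 (adjusted p = 0.00486), and *Dusp9*, a phosphatase gene that BMP induces in mESCs, of -0.31 (adjusted p = 0.00036). *Id2*, *Msx2*, *Id4* and *Gata3* fell in the libraries in which the summed trophoblast, primitive endoderm, mesoderm and neuroectoderm markers were lower. Of the 6 mesoderm markers, *T* (13.4-fold) and *Kdr* (3.20-fold) were lower, *Hand1* had a log2 fold change of -0.87 that did not pass, and *Mixl1*, *Tbx6* and *Mesp1* had values of 0.56, 0.31 and 1.33 that did not pass or were not given an adjusted p. Of the 4 neuroectoderm markers, *Pax6* (5.03-fold) and *Neurod1* (5.27-fold) were lower, while the abundant *Tubb3*, at -0.05, makes up most of the sum. The part of such cells in these results was not tested.

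The 3 genes for E proteins, the partners that Id proteins bind, were *Tcf3*, *Tcf4* and *Tcf12*. *Tcf3* was lower, with 7764 and 8028 normalized counts in WT and 5494 and 5180 in the KO-labelled libraries (log2 fold change -0.57, DESeq2 adjusted p = 1.10e-12). With chromosome medians removed, *Tcf3* stood at -0.22 (adjusted p = 0.0158). *Tcf4* was lower as well (-0.45, adjusted p = 0.00593). *Tcf12* went the other way, with 1875 and 1957 in WT and 2175 and 2299 in the KO-labelled pair, and its log2 fold change of 0.22 did not pass (adjusted p = 0.0598), though it did with edgeR (0.0383). The groups did not overlap for any of these 3 genes, as for 70.2% of all genes tested.

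Of the 17 genes named from this wider list, 7 kept an adjusted p under 0.05 under every alternative run, and the other 10 lost it under at least 1. *Gdf3*, *Crim1*, *Ski*, *Hey1* and *Tcf4* lost it without each of the 4 libraries in turn. *Smad7* lost it without every library but WT replicate 2, and *Dusp9* without WT replicate 2 and without KO-labelled replicate 1. The signs of all 17 held throughout.

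**Figure D4:**
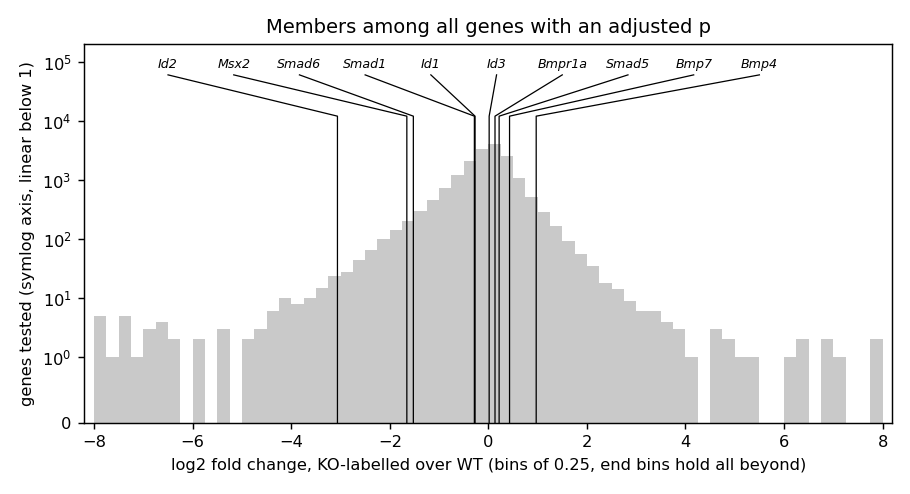
Histogram of the log2 fold changes (KO-labelled over WT, x axis) of the 17710 genes tested, with the number of genes on a symlog y axis and lines at the 10 genes. *Id2* lies in the thin left tail with 0.565% of genes below it, *Msx2* and *Smad6* have 3.10% and 3.73% below them, *Bmp4* has 95.7%, and the other 6 lie between 28.8% and 84.0%.

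Placed among all genes tested, *Smad1* and *Id1* lay in the lower part of the distribution with 28.8% and 29.8% of genes below them. *Id3* was near its middle with 51.0%. *Bmpr1a*, *Smad5* and *Bmp7* lay above the middle with 61.7%, 69.5% and 84.0%.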

How the data were processed

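RNA was sequenced from HATX mESCs, with 2 libraries labelled WT and 2 labelled *Spen* KO clone 2. Per the study's methods, stranded libraries with ribosomal RNA removed were mapped to mm9 with STAR and assigned to GENCODE genes with featureCounts. The authors deposited raw counts of reads for each gene. Tool versions, the strand setting and the treatment of multi-mapping reads are not given in the sources used here. Groups came from the labels, and 0 columns were without a sample. Total counts were 36667685 and 43835004 (WT) and 54715889 and 61908422 (KO-labelled). The precision of a low gene follows its own counts in each group. Among genes with 1 to 20 counts, 64.0% to 66.5% were even in each library. A table that counts both mates of a pair holds fewer independent fragments than its counts say, which would make low values such as those of *Msx2* and *Bmp7* less precise, and whether this table does so was not tested. Replicates differed beyond sampling noise (chi-square per degree of freedom 40.6 in WT, 15.6 in KO-labelled), and none was merged.

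DESeq2 1.42.0 in R 4.3.3 (Wald test, group alone, default filtering, Benjamini-Hochberg adjustment over all 17710 genes tested) was the main test. A positive log2 fold change means more RNA in the KO-labelled group. RPKM used GENCODE vM1 exon lengths. The alternatives were edgeR 4.0.16, TMM factors, a filter of 10 counts in 2 libraries, the replicate number as a block, removal of chromosome medians, a looser threshold and leaving out each library. Running them for single genes of the wider list was chosen after seeing the data. On simulated counts, 200 genes above a minimum mean count were changed by a log2 fold change of 2. DESeq2 recovered 92.5% and called 2 others among 17655 genes, and edgeR recovered 92.5% and called 4 others among 17282 genes. Recovery of smaller changes, or of genes with lower counts, was not tested. Replicate numbers did not pair the libraries (correlation of deviations -0.03 over 13350 genes).

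The genes and lists were chosen with earlier results of these data known. The text names all 10 genes, each gene of the wider list called at the study's thresholds, and up to 3 further genes per role with the smallest adjusted p under 0.05. *Bmp2*, *Bmp5*, *Tcf12* and the markers *T*, *Kdr*, *Hand1*, *Mixl1*, *Tbx6*, *Mesp1*, *Pax6*, *Neurod1*, *Tubb3*, *Col1a1*, *Col1a2* and *Col3a1* were named after their values were seen. Of 39 lineage markers 37 were matched.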

Additional observations from a re-analysis of the deposited data

How the results depend on the processing

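Under every alternative run, *Bmp4*, *Smad6*, *Id2* and *Msx2* kept their direction and an adjusted p under 0.05. At that threshold, edgeR gave 2 of the 10 genes higher and 5 lower, as did removing chromosome medians, where *Smad1*, *Smad5* and *Id1* passed. Over all genes, edgeR gave 3346 higher and 3721 lower of 17261, and removing chromosome medians 2130 and 2557 of 17230. Of the wider list, edgeR gave 21 lower, TMM factors 2 higher, and removing chromosome medians 1 higher. With the replicate block the wider list gave 1 higher and 8 lower (all genes: 1857 and 1973 of 15789, from 2909 and 2805 of 17710), and it changed no call among the 10 genes. With the 2-fold minimum kept and the adjusted p loosened to 0.05, 1 wider gene (*Acvrl1*) was called higher and 6 lower. Leaving out single libraries gave 0 to 1 of the 10 called higher (*Bmp4*) and 2 to 3 called lower, a median log2 fold change from -0.159 to -0.0649 (without WT replicate 2), and in the wider list 0 to 1 called higher, 1 to 3 higher and 6 to 7 lower at an adjusted p under 0.05, where all genes gave 1563 to 1815 higher and 1572 to 1737 lower of 13547 to 15021. Such fits leave 1 group with 1 library, which is assumed to vary like the other group. The log2 fold change of *Id3* ran from -0.0814 (without KO-labelled replicate 1) to 0.119 (without KO-labelled replicate 2), turned also to -0.0573 without WT replicate 1, and stayed inside its interval. The cause of these differences was not tested. Among fold changes of the 10 genes 82 kept their direction and side of the threshold, 6 newly passed it and 2 turned. *Bmp7* and *Msx2* had the largest standard errors of the 10 genes in the DESeq2 fit, 0.32 and 0.33. *Id2* also had few counts in the KO-labelled libraries, 78 and 88.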
